A study of Mus musculus with 10 samples.

Results

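The genes described here encode proteins of DNA damage signalling and DNA repair. A list of 33 such genes was followed across cultured granule cell precursors of the mouse cerebellum, each through its brightest probe set, that is the set of short array probes with the highest mean log2 signal over all arrays. Of the 33, 32 had a probe set assigned to that gene alone, among 18193 genes with one. Xrcc2, a gene of homologous recombination, is not analysed here. After a filter on dim genes 31 remained among 11405 tested. The gene left out was Bard1, the partner of Brca1, which was close to background in every group (signals of 26.8, 33.6 and 4.67 on the untreated wild type arrays and of 75.6 and 30.8 on those with Shh).

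Granule cell precursors divide after birth in the outer layer of the cerebellum, and sonic hedgehog (Shh), a protein secreted by Purkinje cells, is their main mitogen. Primary cultures were prepared from pups labelled P5-7 after meninges and vessels were taken off, and were kept for 24 hours in medium with 10% fetal calf serum and 20 mM KCl. Shh was given for 24 hours at a concentration labelled as 3 mg/ml. The submitters call the cultures biological replicates, and as the number of animals behind each is not stated, a p-value here reflects no more than the spread from culture to culture. The series asks, by its title, how Bmi1 bears on the change of expression that Shh brings. There were 4 groups of arrays. Untreated wild type cultures (WT) gave arrays 1, 3 and 5, untreated Bmi1 knockout cultures (KO) gave arrays 2, 4 and 6, wild type cultures with Shh gave arrays 7 and 9, and Bmi1 knockout cultures with Shh gave arrays 8 and 10. The notes on array 3 mention Shh where it applies, while its title names no treatment, and it was used as untreated. On the first principal component array 3 lay at -33.1, beside -30.4 to -25.9 for the other untreated arrays and 39.1 to 48.5 for those with Shh. Bmi1 belongs to the Polycomb repressive complex PRC1, and the knockout is not limited to a cell type by its label. The labels do not say which part of the gene was deleted. Without Shh, both Bmi1 probe sets gave signals in KO near those of WT (3610 ± 259 against 3958 ± 290 and 1941 ± 310 against 2062 ± 290, SD, n = 3). With Shh they gave 3424 ± 11.8 against 4340 ± 248 and 2146 ± 103.5 against 2299 ± 363 (SD, n = 2). Signal thus remained in KO in both conditions, so these probe sets check nothing about the deletion.

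Cells meet DNA breaks and copying errors with a set of linked pathways. The kinases Atm and Atr detect broken and stalled DNA and signal through the kinases Chek1 and Chek2, which hold the cell cycle. Breaks are rejoined without a template by end joining, or copied from the sister chromatid by homologous recombination, which works in S and G2 phase, so that many of its genes are transcribed most in dividing cells. The Fanconi anaemia pathway removes crosslinks between DNA strands, excision repair replaces damaged bases or stretches, and bypass polymerases copy past damage. Inherited loss of several of these genes leads to small brains or ataxia in people and mice.

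With Shh, 9 of the 31 tested genes were called higher in both genotypes, among them genes of homologous recombination and the checkpoint kinase gene Chek1. Of the 31, 1 differed between genotypes. In WT cultures 14 of the 31 tested genes rose with Shh and 2 fell, and in KO cultures 10 rose and 2 fell. Without array 8 the 12 calls in KO became 7. In the background of all 11405 genes, 33.8% were called in WT (14% higher, 19.8% lower) and 28% in KO (11% higher, 17% lower). The share of all genes called higher in both genotypes was not counted, and it can be no larger than the 11% in KO. A gene is called where its Benjamini-Hochberg adjusted p over all tested genes, from a limma model with 1 mean per group, lies under 0.05. The median log2 difference of the 31 was 0.35 in WT and 0.21 in KO, against -0.01 and -0.01 over all genes. For the difference between KO and WT, 0 of the 31 were called without Shh and 0 with Shh, where 0.377% (0.324% higher, 0.0526% lower) and 0.728% (0.614% higher, 0.114% lower) of all genes were. By unadjusted p under 0.05, limma gave 4 of the 31 (12.9%) in each, beside 8.68% and 9.76% of all genes. On the average of both conditions 1 was called, Polk, with 1.54% of all genes called (1.22% higher, 0.324% lower).

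**Figure D1:**
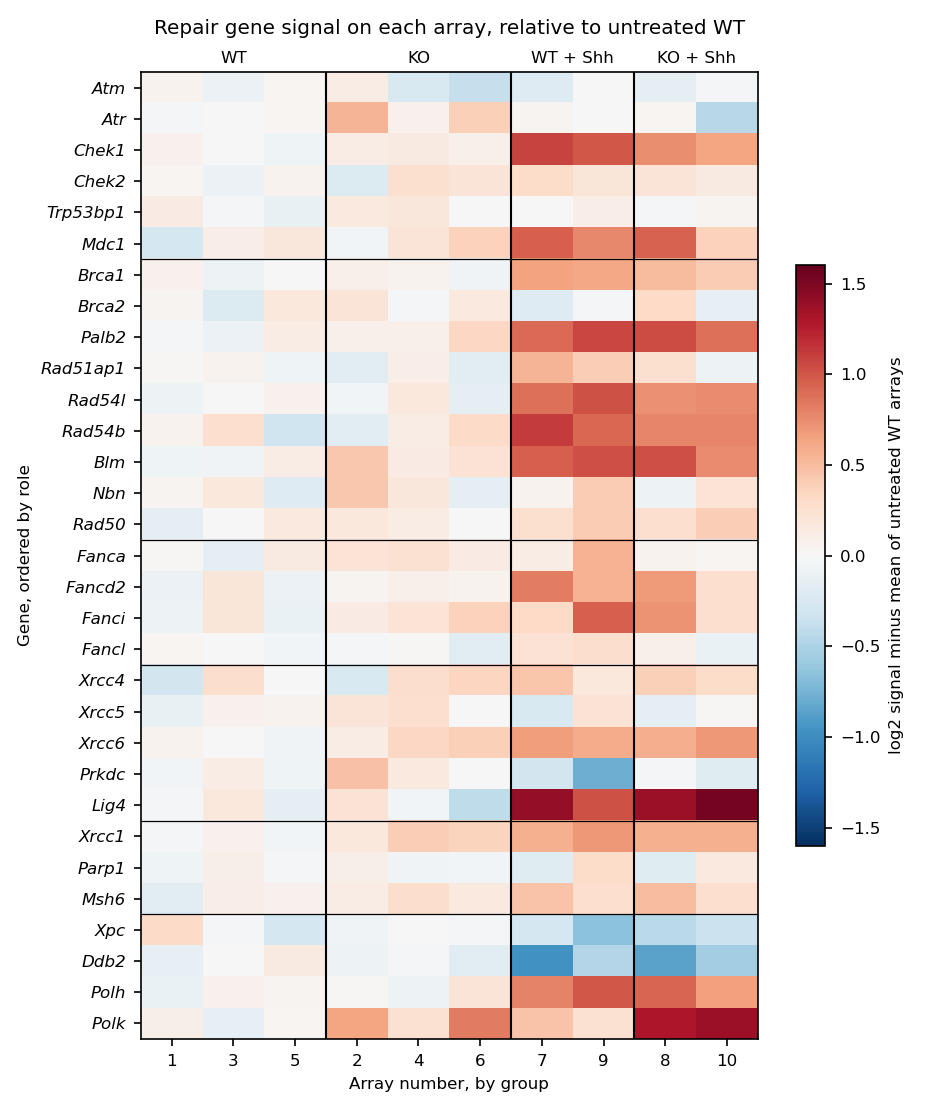
Signal of the 31 tested repair genes on each of the 10 arrays, as the log2 signal minus the mean of the untreated WT arrays of the same gene (colour), with genes in rows by role and arrays in columns by group. The 4 arrays with Shh are red for genes such as Chek1, Palb2, Rad54l, Blm and Lig4 in both genotypes, and blue for Ddb2, while Polk is also red on the untreated KO arrays.

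The sequences just before the start of the genes with the largest response are shown so that they can be set beside the signals. They are the 250 bases before the most upstream transcription start in RefSeq (GRCm38.p6), read 5′ to 3′ on the strand of the gene, in lower case with matches to the motifs searched in capitals. Lig4, Palb2 and Rad54l are 3 of the 4 genes with the largest mean Shh difference among those called in both genotypes (the other, Rad54b, is named only), and Polk is the gene that differed between genotypes. Blm and Xrcc6 were added once matches were known, because both rose in both genotypes and Blm holds more than 1 CCAAT match and Xrcc6 an E2F-type match.

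Lig4, chr8:9977681-9977930, minus strand: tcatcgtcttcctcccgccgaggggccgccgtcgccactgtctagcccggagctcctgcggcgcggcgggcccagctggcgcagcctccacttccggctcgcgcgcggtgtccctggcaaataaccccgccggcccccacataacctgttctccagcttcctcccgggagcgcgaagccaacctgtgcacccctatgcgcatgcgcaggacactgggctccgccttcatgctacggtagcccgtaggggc
Palb2, chr7:122132947-122133196, minus strand: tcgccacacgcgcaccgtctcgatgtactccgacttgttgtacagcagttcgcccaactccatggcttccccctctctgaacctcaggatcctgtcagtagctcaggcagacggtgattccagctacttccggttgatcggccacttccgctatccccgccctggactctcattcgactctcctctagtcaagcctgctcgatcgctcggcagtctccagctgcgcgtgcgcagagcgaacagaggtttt
Rad54l, chr4:116123691-116123940, minus strand: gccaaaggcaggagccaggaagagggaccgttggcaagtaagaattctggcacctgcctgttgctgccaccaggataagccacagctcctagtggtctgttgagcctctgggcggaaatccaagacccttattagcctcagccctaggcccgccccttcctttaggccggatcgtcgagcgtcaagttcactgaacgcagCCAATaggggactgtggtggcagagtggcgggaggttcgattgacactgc
Blm, chr7:80534999-80535248, minus strand: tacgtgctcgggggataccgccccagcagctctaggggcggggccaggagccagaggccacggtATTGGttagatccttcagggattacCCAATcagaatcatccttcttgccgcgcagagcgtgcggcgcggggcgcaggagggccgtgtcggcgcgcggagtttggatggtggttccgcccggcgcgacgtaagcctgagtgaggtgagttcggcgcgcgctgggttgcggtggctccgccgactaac
Xrcc6, chr15:82016119-82016368, plus strand: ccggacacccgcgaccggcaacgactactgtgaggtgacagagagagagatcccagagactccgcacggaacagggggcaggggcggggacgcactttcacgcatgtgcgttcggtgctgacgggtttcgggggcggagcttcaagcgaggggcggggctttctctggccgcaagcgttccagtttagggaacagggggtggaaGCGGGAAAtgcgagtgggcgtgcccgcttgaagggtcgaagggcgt
Polk, chr13:96542580-96542829, minus strand: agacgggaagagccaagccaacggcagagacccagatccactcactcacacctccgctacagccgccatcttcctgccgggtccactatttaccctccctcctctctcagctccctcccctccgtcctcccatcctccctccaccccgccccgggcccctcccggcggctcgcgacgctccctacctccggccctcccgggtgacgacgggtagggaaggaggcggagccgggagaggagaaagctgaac

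The letters searched on both strands were TTTGGCGC, TTTCGCGC and TTTCCCGC (the type bound by E2F factors, which drive S phase genes), TTTGAA (the cell cycle homology region, or CHR, of G2 and mitosis genes) and CCAAT (the type bound by NF-Y). No letters of one motif overlapped another in the 6 sequences printed. Promoters were held for 25 of the 33 genes. An E2F-type match stood in 5 of the 25 (20%), in Chek2, Mdc1, Brca2, Bard1 and Xrcc6, and in 1.59% of all 27025 promoters of the same length. The 27025 hold genes that were not tested on these arrays, so shares of the 25 and of all compare unlike sets. A CCAAT match stood in 11 of the 25 (44%) against 34.5% of all, and TTTGAA in 1 (4%) against 16.3%. Among the 9 genes that rose with Shh in both genotypes, 8 had a promoter, of which 1 held an E2F-type match (Xrcc6, 46 bases before the start, at position -46 and on the minus strand), 3 a CCAAT match and 0 a TTTGAA match. Of the 16 other tested genes with a promoter 3 held an E2F-type match and 8 a CCAAT match. For comparison, 6 of 19 promoters of a list of S phase and replication genes held an E2F-type match and 13 held CCAAT, and of 16 promoters of G2 and mitosis genes 7 held TTTGAA and 14 held CCAAT. These are counts of letters in one window, and no binding was measured.

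Damage signalling genes moved apart from one another. Of the 6 in this role, Chek1 rose with Shh in both genotypes, Mdc1 was called in WT, Atr fell in KO, and Atm, Chek2 and Trp53bp1 were not called in any comparison. Chek1 encodes the kinase that slows replication and guards the G2 checkpoint. It gave signals of 834, 795 and 759 on the untreated WT arrays and of 1677 and 1578 with Shh. In KO it gave 863, 882 and 843 untreated and 1335 and 1228 with Shh. Every array with Shh was above every untreated array of either genotype. The difference with Shh was 1.03 ± 0.09 on the log2 scale in WT (SE, limma adjusted p = 5.65e-05, 2.04-fold) and 0.57 ± 0.09 in KO (adjusted p = 0.00182, 1.48-fold). A separate bright probe set of Chek1 gave differences of 0.77 in WT and 0.88 in KO, so that the estimate was lower in KO with one probe set and higher with the other. Another probe set above the filter, much dimmer, gave 0.30 in WT and -0.17 in KO. With the mean of all 5 Chek1 probe sets, dim ones included, the differences were 0.34 and 0.26 and were not called.

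Mdc1 encodes the adaptor that spreads the damage mark along chromatin. Its signal was 424, 553 and 582 in untreated WT and 999.6 and 877 with Shh, a difference of 0.86 ± 0.20 (adjusted p = 0.0108), which was not called without array 7 (adjusted p = 0.0731). In KO it went from 501, 592 and 662 to 994 and 665, with no overlap but a difference of 0.48 that was not called (adjusted p = 0.109). Atr encodes the kinase that responds to stalled replication. With its brightest probe set, signals in WT stayed between 449 and 473 on all 5 arrays. In KO they were 673, 483 and 602 untreated and 472 and 338 with Shh, a difference of -0.54 ± 0.17 (adjusted p = 0.0392). The untreated KO arrays lay above both KO arrays with Shh, but the call was lost without any one of 8 arrays (1, 2, 3, 5, 6, 7, 9 or 10, adjusted p up to 0.287), under median scaling and under quantile normalization. Its dimmer probe sets went down in both genotypes. The one above the filter gave 145, 111 and 147 in untreated WT and 52.7 and 42.0 with Shh, a difference of -1.50, and -0.74 in KO, and the dimmest gave -1.05 and -1.15. The probe sets of Atr thus differ on whether WT changed. Atm, the kinase of double-strand breaks, gave 795 ± 42.3 in WT, 716 ± 131 in KO, 741 ± 73.1 in WT with Shh and 752 ± 44.7 in KO with Shh (SD, n = 3, 3, 2 and 2), and its difference between KO and WT without Shh had a 95% interval of -0.46 to 0.13. A second bright probe set of Atm gave 0.205 for that difference. Chek2, the kinase downstream of Atm, had a Shh difference of 0.24 in WT and 0.09 in KO, and Trp53bp1, which steers breaks towards end joining, one of 0.05 and -0.09.

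Homologous recombination, the role with the most tested genes, held the most genes that rose. Of 9 tested genes in this role, 6 rose with Shh in WT and 5 in KO, beside 14% and 11% of all genes. In this role 0 fell in either genotype (19.8% and 17% of all genes). The median log2 difference of the 9 was 0.63 in WT and 0.43 in KO. Brca1, Palb2, Rad54l, Rad54b and Blm rose in both genotypes. Brca1 and Palb2 act together at broken ends, Rad54l and Rad54b are motor proteins that help in the search for and pairing with the intact partner strand, and Blm is a helicase that resolves recombination intermediates.

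Palb2 gave signals of 125, 119 and 138 in untreated WT, 134, 134 and 159.7 in untreated KO, 237 and 267 in WT with Shh, and 260.5 and 234 in KO with Shh. The groups with and without Shh were fully apart, while both genotypes lay at like levels within a condition. The difference with Shh was 0.99 ± 0.12 in WT (adjusted p = 0.000365) and 0.80 ± 0.12 in KO (adjusted p = 0.00146). Rad54b was dim, with signals of 96.4, 112 and 75 in untreated WT, 82.0, 101 and 115 in untreated KO, 203 and 176 in WT with Shh, and 161 and 160.4 in KO with Shh. It rose by 1.02 ± 0.19 in WT (adjusted p = 0.00308) and by 0.71 ± 0.19 in KO (adjusted p = 0.0212), and the KO call was lost without array 2, 8 or 10 (adjusted p up to 0.0951), without a filter on dim genes and with a trended prior. Rad54l went from 772 ± 39.8 to 1496 ± 101 in WT and from 769 ± 90.2 to 1292 ± 14.2 in KO. Its differences were 0.95 ± 0.11 (adjusted p = 0.000336) and 0.75 ± 0.11 (adjusted p = 0.00147), and a pair of its other bright probe sets gave 0.76 and 0.80 in WT and 0.51 and 0.54 in KO.

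Blm went from 728 ± 54.7 to 1444 ± 55.6 in WT, a rise of 0.99 ± 0.13 (adjusted p = 0.000464), and from 877 ± 93.8 to 1359 ± 180 in KO, a rise of 0.63 ± 0.13 (adjusted p = 0.00599) that was not called without array 8 (adjusted p = 0.0603). Brca1 had little spread. Its signals were 1246, 1119.7 and 1193 in untreated WT and 1844 and 1823 with Shh, against 1251, 1232 and 1141 and then 1678 and 1567 in KO. It rose by 0.63 ± 0.09 (adjusted p = 0.000984) and by 0.43 ± 0.09 (adjusted p = 0.00866), and the KO call was lost without array 8 (adjusted p = 0.0722). Both of its other bright probe sets gave like differences of 0.63 and 0.61 in WT and of 0.46 and 0.47 in KO. Rad51ap1, which promotes strand pairing, rose by 0.47 ± 0.13 in WT (adjusted p = 0.0249) and was not called there without array 5, 7 or 9 (adjusted p up to 0.148). Its difference in KO was 0.18 (adjusted p = 0.369), and the difference between both genotypes was -0.29 with an adjusted p of 1.

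The other 3 recombination genes gave 0 calls in either genotype alone. Brca2, which is held at broken ends by Palb2, had a Shh difference of -0.12 in WT (95% interval -0.49 to 0.26) and of -0.02 in KO. Nbn and Rad50 belong to the complex that first holds and trims broken ends. Nbn had Shh differences of 0.23 and -0.08 and was not called. Rad50 was called only on the average of both genotypes (0.28 ± 0.08, adjusted p = 0.0182), and that call was lost without array 9 or 10 (adjusted p up to 0.0728), without arrays 1 and 6, and with the mean of all its probe sets.

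In the Fanconi anaemia pathway, 2 of 4 genes rose with Shh in WT and 0 in KO (14% and 11% of all genes). Fancd2 and Fanci form the pair that is ubiquitinated at a crosslink, Fanca is part of the core complex that brings this about and Fancl is its ubiquitin ligase. Fancd2 went from 188, 228 and 187 to 351 and 294 in WT, a rise of 0.68 ± 0.15 (adjusted p = 0.00695) that was not called without array 7 (adjusted p = 0.0629). In KO it went from 206, 211 and 209 to 319.7 and 241, with no overlap and a difference of 0.41 (adjusted p = 0.0654). Its second bright probe set gave 0.98 in WT and 1.10 in KO. Fanci had a difference of 0.64 ± 0.20 in WT (adjusted p = 0.0393) that rested on array 9, with signals of 248, 300.1 and 244 untreated and 328 and 509.8 with Shh. Its call was lost without array 1, 2, 4, 5, 6 or 9 (adjusted p up to 0.314) and in the fit with paired arrays (adjusted p = 0.0629). Fanca (0.34 in WT, -0.16 in KO) and Fancl (0.26 and 0.04) were not called.

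End joining genes went in different directions. Xrcc5 and Xrcc6 encode the Ku proteins that clamp broken ends, Prkdc the kinase they recruit, and Lig4 the ligase that seals the break with its cofactor Xrcc4. Lig4 had the largest rise of all 31 genes. Its signals were 177, 203 and 163 in untreated WT, 211, 174 and 135 in untreated KO, 476 and 366 in WT with Shh, and 470.5 and 519.6 in KO with Shh. All 4 arrays with Shh lay above all 6 untreated arrays, and the genotypes overlapped. The difference was 1.21 ± 0.19 in WT (adjusted p = 0.0015, 2.32-fold) and 1.53 ± 0.19 in KO (adjusted p = 0.000591, 2.9-fold). It was called without any one array, in both genotypes.

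Xrcc6 rose by 0.63 ± 0.10 in WT (adjusted p = 0.00176; 604 ± 24.9 to 938 ± 31.8) and by 0.36 ± 0.10 in KO (adjusted p = 0.0294; 733 ± 67.1 to 941 ± 50.5). The KO call was lost without array 2, 8 or 10 (adjusted p up to 0.163), and with the mean of both its probe sets, 1 of them near background, both calls were lost. Its partner Xrcc5 had differences of -0.01 and -0.22 and was not called, and the difference between both Ku genes was not tested. Prkdc went the other way. Its signals were 345, 388 and 339 in untreated WT, 291 and 208 with Shh, and in KO 494, 399 and 354 untreated and 348 and 311 with Shh. Within each genotype both arrays with Shh lay below the untreated ones. The difference was -0.54 ± 0.18 in WT (adjusted p = 0.0421) and -0.32 in KO (adjusted p = 0.207), and the WT call was lost without array 1, 3, 4, 5, 8, 9 or 10 (adjusted p up to 0.317). On the average of both genotypes Prkdc fell by 0.43 on the log2 scale (SE 0.12, adjusted p = 0.0188). Xrcc4 had differences of 0.31 and 0.21 and was not called.

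Genes of single-strand break and mismatch repair gave 1 call among 3 in WT and 0 in KO (33.8% and 28% of all genes). Xrcc1, the scaffold on which single-strand breaks are closed, rose from 617, 655 and 607 to 931 and 1015 in WT, by 0.63 ± 0.10 (adjusted p = 0.00143). In KO it started higher, at 705, 823 and 803, and ended at 929 and 925, a difference of 0.26 (adjusted p = 0.086). Msh6, which recognises mismatches, was called only on the average of both genotypes (0.28 ± 0.09, adjusted p = 0.0302; in WT alone 0.36, adjusted p = 0.0553, or 0.0468 with paired arrays), and not without array 1, 2, 6, 7 or 8 (adjusted p up to 0.118) or under quantile normalization. Parp1, which senses strand breaks, was bright on every array (3441 to 4832) and had differences of 0.05 in WT and -0.02 in KO.

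In excision repair and bypass, a damage sensor of nucleotide excision repair, Ddb2, fell in both genotypes while the bypass polymerase gene Polh rose in both. Ddb2 finds ultraviolet lesions in chromatin and is a p53 target in human cells. Its signals were 169, 186 and 205 in untreated WT, 176, 184 and 166 in untreated KO, 95.4 and 135 in WT with Shh, and 103 and 127 in KO with Shh. All arrays with Shh lay below all untreated ones. The difference was -0.72 ± 0.16 in WT (adjusted p = 0.00853, 1.64-fold lower) and -0.62 ± 0.16 in KO (adjusted p = 0.0203, 1.53-fold lower), lost in WT without array 7 (adjusted p = 0.0742) and in KO without array 4 or 8 (adjusted p up to 0.154). Its second probe set gave -0.67 in WT and -1.30 in KO. Xpc, the sensor that starts global repair, was called only on the average of both genotypes (-0.41 ± 0.12, adjusted p = 0.0202). Its signals were 390.1, 309 and 258 in untreated WT, 259 and 200.0 with Shh, 303, 315 and 308 in untreated KO and 233 and 249 with Shh, and the call was lost without array 8 or 9 (adjusted p up to 0.0843). The lower values of Ddb2, Prkdc, Xpc and Atr depended on the scaling: under median scaling and quantile normalization all 4 kept a negative difference in the comparisons named, but of these calls only that of Ddb2 on the average of both genotypes held.

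Polh, the bypass polymerase for ultraviolet lesions, rose by 0.90 ± 0.13 in WT (adjusted p = 0.000915; 207 ± 12.8 to 386 ± 37.4) and by 0.75 ± 0.13 in KO (adjusted p = 0.00289; 214 ± 22.5 to 361 ± 48.0). Its probe set is of a kind that can bind related transcripts, and its other probe sets were at or near the floor.

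**Figure D2:**
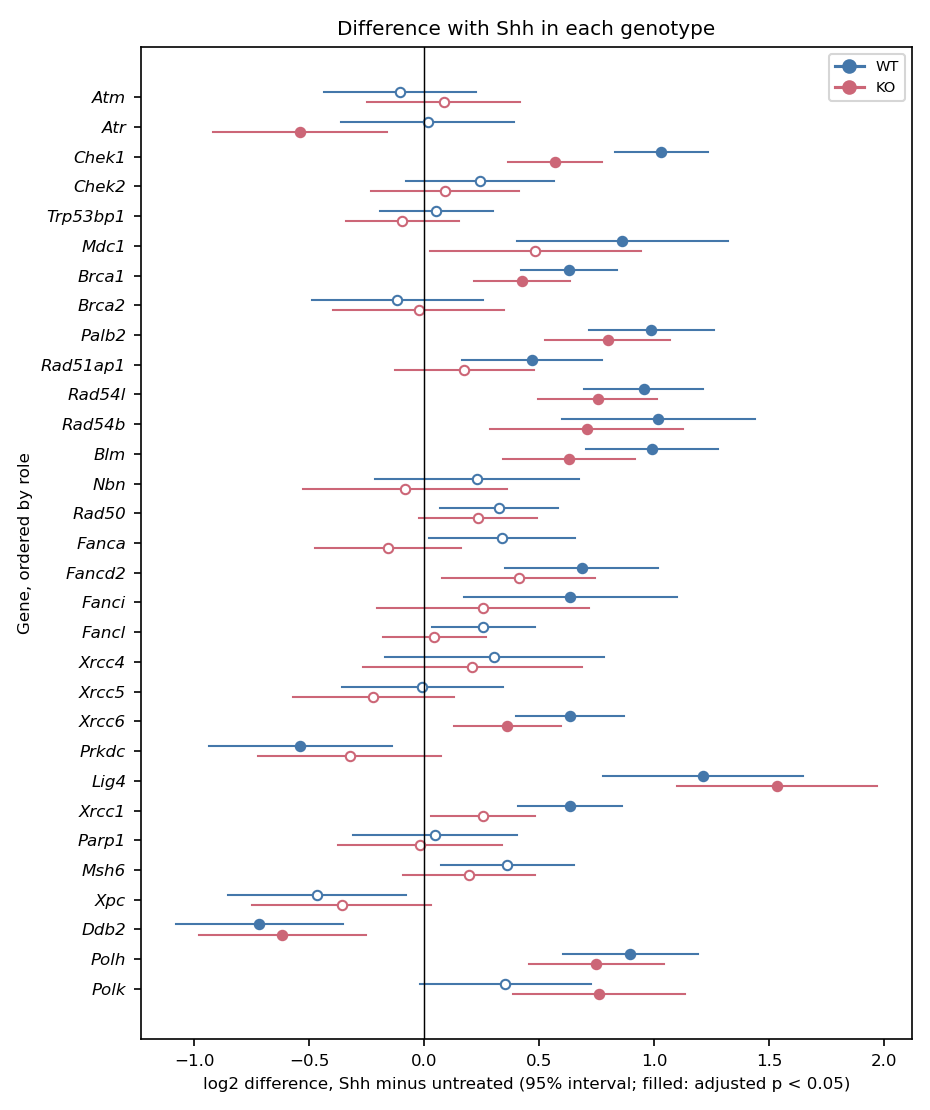
Log2 difference between Shh-treated and untreated arrays for each of the 31 tested repair genes, in WT (blue) and KO (red), with the 95% interval of the model and filled points where the adjusted p was under 0.05. Lig4 lies farthest right (1.21 and 1.53) and Ddb2 farthest left (-0.72 and -0.62). On the right 9 genes are filled in both genotypes, a share that was not counted over all genes.

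Polk was the only gene of the 31 that was called for genotype. It encodes a bypass polymerase that extends past bulky lesions and is known in mice as a p53 target. Its signals were 146, 125 and 139 in untreated WT, 211, 161 and 243 in untreated KO, 188 and 162 in WT with Shh, and 334 and 352 in KO with Shh. KO lay above WT in both conditions with no overlap. The difference between KO and WT was 0.57 ± 0.15 without Shh (adjusted p = 0.246), 0.97 ± 0.18 with Shh (adjusted p = 0.0546) and 0.77 ± 0.12 on the average of both (adjusted p = 0.0144). The average call was lost without array 8, 9 or 10 (adjusted p up to 0.0685), with a filter at the 75th percentile, which removes the gene, and with the mean of its probe sets. The other, dimmer probe set of Polk gave 70.1, 50.2 and 51.7 in untreated WT and 69.1, 66.3 and 37.0 in untreated KO, which overlap, and 67.8 and 81.1 against 82.9 and 101 with Shh. With Shh, Polk rose by 0.76 ± 0.17 in KO (adjusted p = 0.00878), a call lost without array 10 (adjusted p = 0.0572), and its difference in WT was 0.35 (adjusted p = 0.131). The difference between these 2 values was not called (0.41 ± 0.23, adjusted p = 1).

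**Figure D3:**
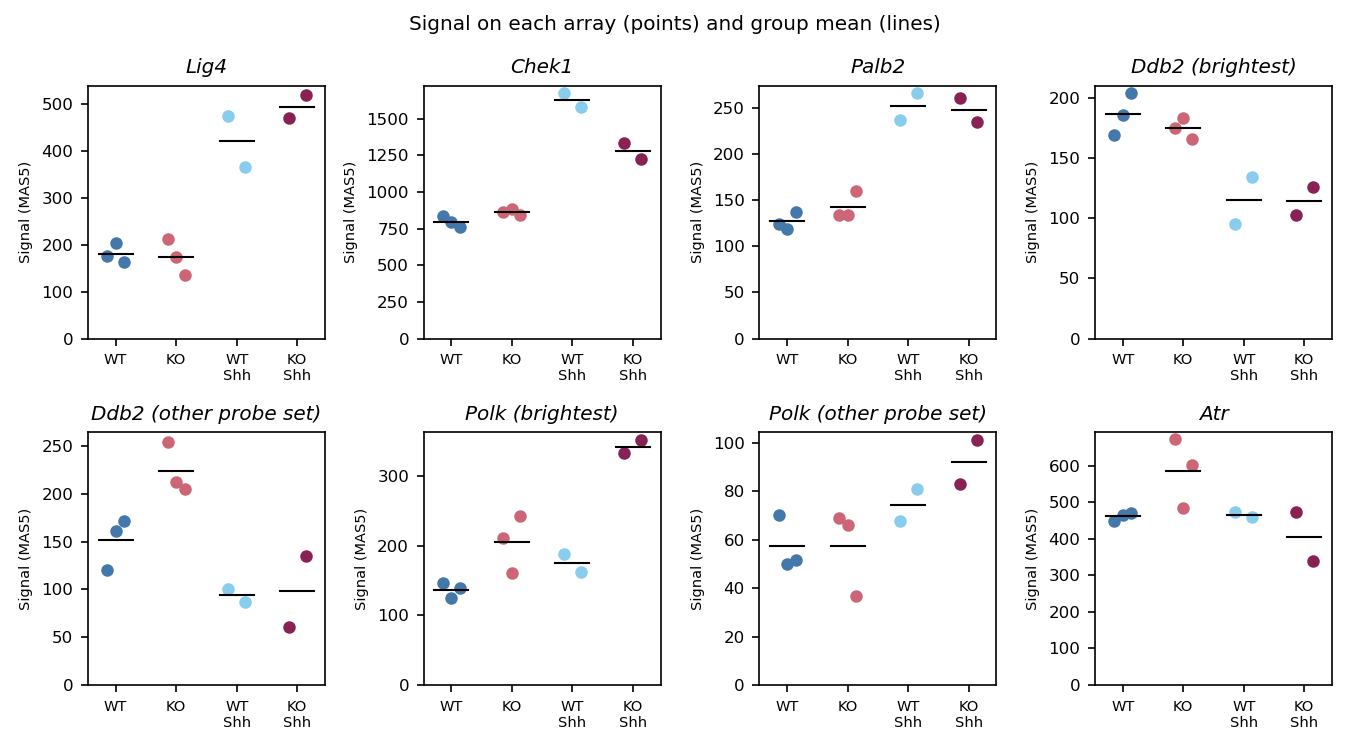
MAS5 signal of Lig4, Chek1, Palb2, Atr and of both probe sets of Ddb2 and of Polk on each array (points, linear axis from 0) with the group mean (line), for WT, KO, WT with Shh and KO with Shh. Lig4, Chek1 and Palb2 stand higher in both groups with Shh, the KO groups of Polk stand above WT with its brightest probe set (334 and 352 against 188 and 162 with Shh), and its other probe set overlaps between genotypes without Shh.

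Ddb2 did not follow Polk. Its KO minus WT difference was -0.09 ± 0.14 without Shh and 0.01 ± 0.18 with Shh, though its second probe set gave 120.4, 161 and 172 in untreated WT against 255, 212 and 205 in KO, a difference of 0.58. Among 17 tested p53 targets outside repair, 8 rose in KO without Shh and 9 with Shh, and 0 fell (median log2 difference 0.55 and 0.90). Cdkn1a, which stops the cell cycle, rose by 2.30 ± 0.15 in untreated KO (adjusted p = 0.000246), Pmaip1, which promotes apoptosis, by 2.08 ± 0.18 (adjusted p = 0.00167) and Phlda3, an inhibitor of Akt, by 2.26 ± 0.14 with Shh (adjusted p = 0.000186). These targets were chosen with results of these arrays known, so their direction is not independent evidence. The genotype differences of the 31 repair genes ran from -0.17 (Atm) to 0.57 (Polk) without Shh and from -0.38 (Rad51ap1) to 0.97 (Polk) with Shh. A second bright probe set of Atm gave 0.205 without Shh, of the opposite sign. Summed signals of other cell types also differed between KO and WT with Shh: 3323 to 3478 against 1702 to 2224 for GABAergic interneuron markers, 11470 to 14080 against 10080 to 10630 for oligodendrocyte markers, 14840 to 16050 against 11600 to 12190 for astrocyte and Bergmann glia markers, and 2191 to 3061 against 3824 to 4036 for microglia markers. Without Shh, interneuron markers summed to 4715 to 6122 in KO against 2839 to 4503 in WT, and microglia markers to 5679 to 6463 against 6879 to 10030, with no overlap in either list. On the average of both conditions 4 of 5 tested interneuron markers were called higher in KO. The part of these differences in that of Polk was not tested.

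**Figure D4:**
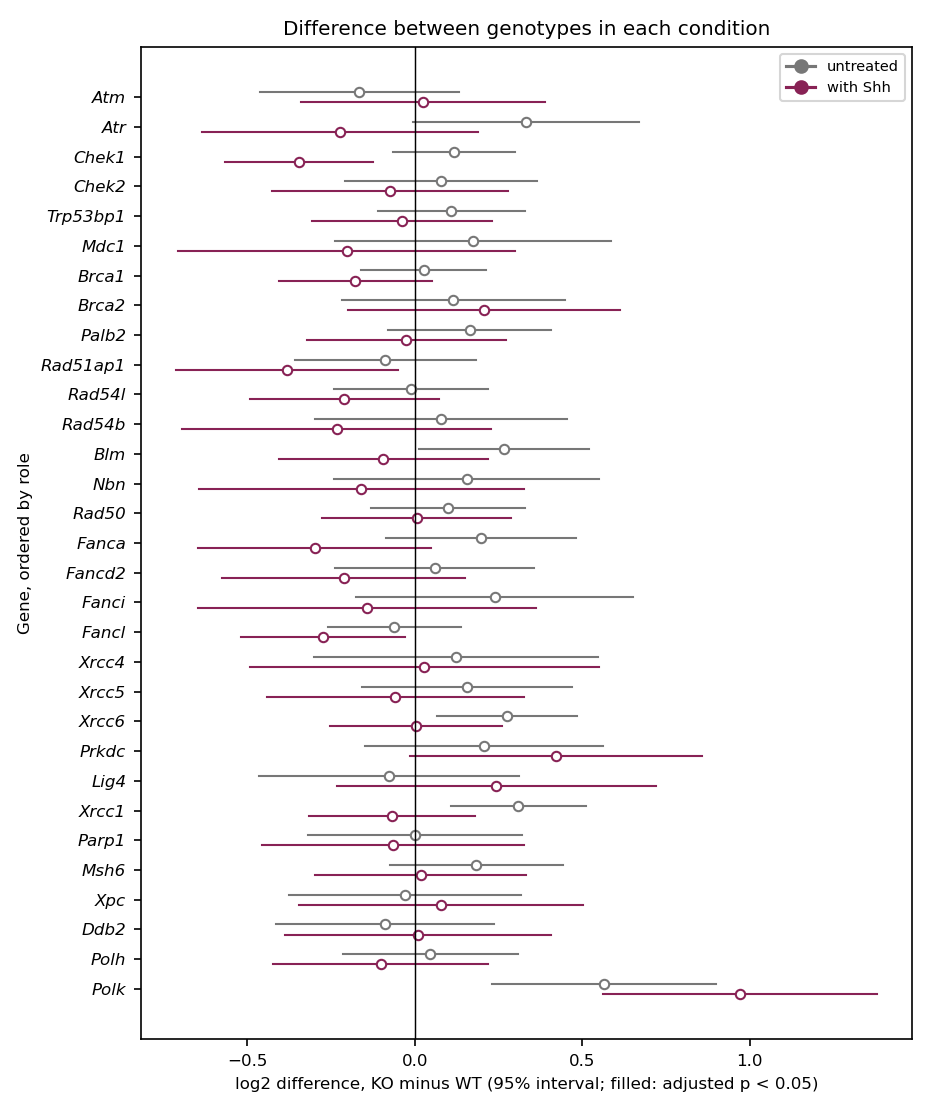
Log2 difference between KO and WT for each of the 31 tested repair genes, without Shh (grey) and with Shh (purple), with the 95% interval of the model. No point is filled, as 0 of 31 genes passed an adjusted p of 0.05 in either condition, and Polk lies farthest right (0.57 and 0.97).

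Differences between genotypes were spread around zero, with more genes above it in one condition and below it in the other. Without Shh 24 of 31 genes had a higher mean in KO than in WT (55.6% of all genes did; median 0.12 against 0.02), and with Shh 11 of 31 (53.5% of all genes; median -0.07 against 0.01). The Shh difference, taken with its sign, was lower in KO than in WT for 24 of 31 genes, against 49.8% of all genes. The median of KO minus WT for it was -0.20 against 0.000889. A lower value is not always a weaker change, as Atr had 0.02 in WT and -0.54 in KO. None of the 31 was called in this interaction, where 0.00877% of all genes were, and 4 (12.9%) had an unadjusted p under 0.05 (Atr, Chek1, Fanca and Xrcc1), as had 4.92% of all genes. The S phase and G2 lists had median interactions of -0.24 and -0.24 and 0 called of 23 and 19. These 3 comparisons share arrays, so the values are set side by side only. The 5 genes called as risen in WT and not in KO (Mdc1, Rad51ap1, Fancd2, Fanci and Xrcc1) are therefore not shown to respond differently, and neither is Polk.

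On the average of both genotypes 17 of 31 repair genes rose with Shh and 3 fell (background 47.1%, 20.9% higher and 26.2% lower). The 10 genes called in no comparison were Atm, Chek2, Trp53bp1, Brca2, Nbn, Fanca, Fancl, Xrcc4, Xrcc5 and Parp1.

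A wider set of 109 other repair and signalling genes, of which 90 were tested, gave 24 rises and 5 falls with Shh in WT and 16 and 5 in KO (median log2 difference 0.23 and 0.14). The share called was 32.2% in WT and 23.3% in KO, beside 33.8% and 28% of all genes. Of all genes 14% and 11% were higher and 19.8% and 17% lower. Among 19 other recombination genes 10 rose in WT and 6 in KO, and 1 fell in KO (52.6% and 36.8% called). Exo1, the nuclease that trims broken ends, rose by 1.61 ± 0.12 in WT (adjusted p = 2.22e-05) and 1.43 ± 0.12 in KO (adjusted p = 6.38e-05), and Gen1, which cuts Holliday junctions, by 1.40 ± 0.21 and 1.09 ± 0.21 (adjusted p = 0.00116 and 0.00517). Both exceeded every recombination gene of the 31. Of 12 other Fanconi genes 4 rose and 1 fell in WT and 3 rose in KO (41.7% and 25% called). The largest rises were those of Ube2t, the conjugating enzyme of the pathway (1.36 and 1.17), and the core subunit Fancb (1.32 and 1.06).

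Of 15 other signalling genes 6 rose in WT and 4 in KO (40% and 26.7% called). Rad1, part of the checkpoint clamp, rose by 0.85 in WT, Wee1, the kinase that restrains mitosis, by 0.76 and 0.62, and the clamp loader subunit Rad17 by 0.48 in KO. Of 6 other end joining genes 1 rose and 2 fell in WT and 1 rose and 1 fell in KO (50% and 33.3% called). Aplf, an end joining scaffold, rose by 0.94 and 0.58, and the gap-filling polymerase Polm fell by 0.54 and 0.84 on the log2 scale. Base excision and mismatch repair gave 2 rises and 1 fall among 19 in WT and 3 falls in KO. The share called was 15.8% in each, below the 33.8% and 28% of all genes. Mpg, a glycosylase for alkylated bases, fell by 1.08 and 0.96 on the log2 scale, the ligase Lig1 rose by 0.59 in WT, and the glycosylase Ogg1 fell by 0.78 on the log2 scale in KO. Of 19 other nucleotide excision and bypass genes 1 rose and 1 fell in WT and 2 rose in KO, 10.5% called in each and again below all genes. These were Ercc5, an excision nuclease, at 0.42 and 0.37, Rev3l, a bypass polymerase, at 0.50 in KO and Primpol, which restarts replication, at -0.85 in WT. Ercc5 was also the only gene of the 90 called for genotype (1.11%, beside 1.54% of all genes). Its difference was 0.33 ± 0.07 on the average of both conditions (limma adjusted p = 0.048).

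Most genes of the cell cycle lists were called higher with Shh in WT. Of 23 genes of S phase and replication 17 rose with Shh in WT and 7 in KO (median 0.48 and 0.25). Of 19 genes of G2 and mitosis 17 rose in WT and 15 in KO (median 0.74 and 0.46). There were 0 falls in these lists, and 14% of all genes were called higher in WT and 11% in KO. Mcm10, a replication initiation factor, rose by 1.29 and Ccne2, the S phase cyclin, by 1.25 in WT and 0.91 in KO, Cdc45 of the replicative helicase by 0.96 in KO, and the mitotic genes Aurka and Kif20a by 1.52 and 1.44 in WT and 1.28 and 1.08 in KO. By role, the median Shh difference on the average of both genotypes was 0.53 for the 9 recombination genes, 0.30 for the 4 Fanconi genes, 0.26 for the 5 end joining genes and 0.28 for the 3 single-strand break and mismatch genes, against 0.08 for the 6 signalling genes, 0.07 for the 4 excision and bypass genes and -0.01 for all genes.

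**Figure D5:**
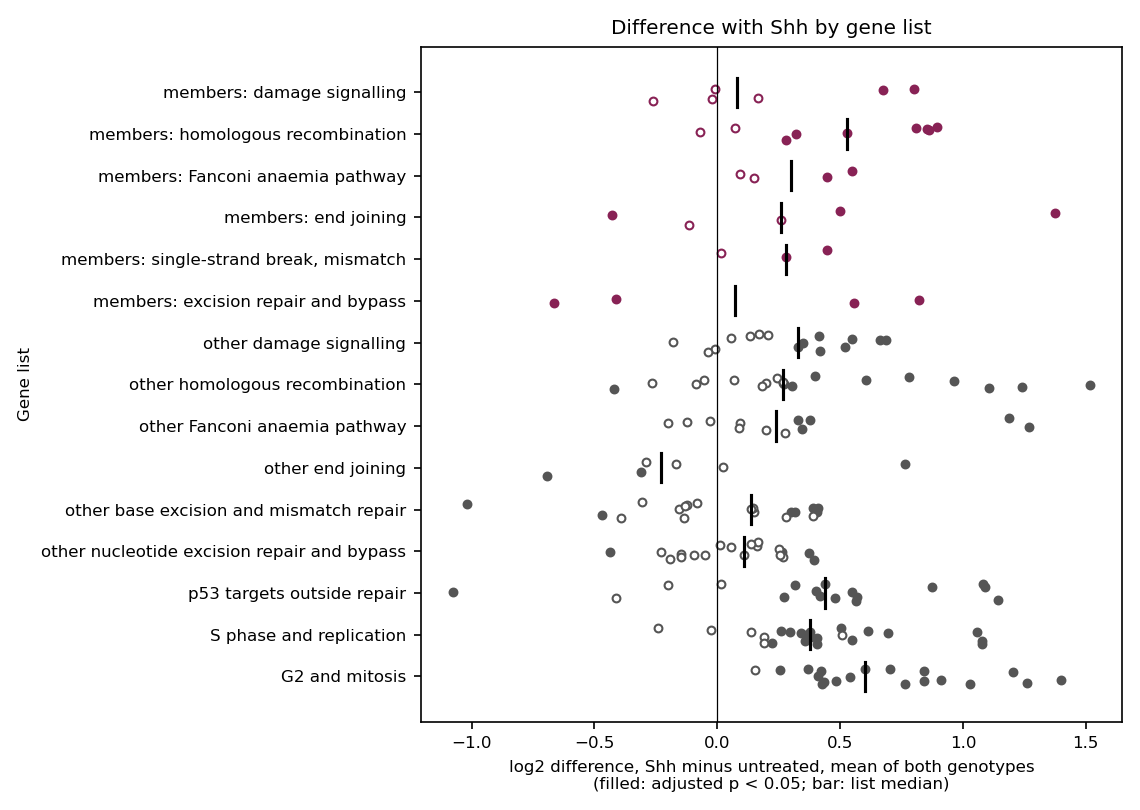
Log2 difference with Shh on the average of both genotypes for each tested gene (points, filled where the adjusted p was under 0.05), by list, with the list's median (bar). Purple points are the repair genes described here and grey points the other fixed lists, and the medians of recombination genes (0.53) and of G2 and mitosis genes (0.60) lie to the right of that of the other end joining genes (-0.23).

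The cultures with Shh also held less RNA of other cell types, a change that stands beside every Shh difference above. Summed over each marker list, signals in WT went from 2734 to 3894 down to 202 to 217 for endothelium (3 of 5 markers tested, all 3 lower), from 1823 to 2406 down to 487 to 541 for fibroblasts and meninges (4 of 5 lower), from 12900 to 25040 down to 3521 to 3922 for Purkinje cells (4 of 4), from 33930 to 46060 down to 11600 to 12190 for astrocytes and Bergmann glia (6 of 7), and from 22790 to 25950 down to 10080 to 10630 for the oligodendrocyte lineage (4 of 6, 1 higher). Microglia (6879 to 10030 down to 3824 to 4036, 5 of 8 lower, 1 higher) and GABAergic interneurons (2839 to 4503 down to 1702 to 2224, 4 of 5 lower) followed. In KO, endothelial markers went from 3409 to 3508 down to 169 to 185 and Purkinje markers from 16820 to 30970 down to 3747 to 5201. With Shh 1 endothelial marker lay at the floor on all arrays of each genotype. The 8 markers of granule cell precursors, the labelled cell type, summed to 40330 to 46960 in WT and to 47030 to 47040 with Shh. In KO they summed to 40150 to 45110 and to 45970 to 47930 with Shh, so neither genotype overlapped. On the average of both genotypes 4 of the 8 were called higher and 1 lower (20.9% and 26.2% of all genes), and 0 lay at the floor. In each genotype alone 4 of the 8 had a Shh difference above 0, with medians of 0.10 in WT and 0.08 in KO. This list holds Gli1, Mycn and Ccnd2, and the part of the Shh response of such genes in its sums was not tested. The 5 markers of granule neurons summed to between 22630 and 32600 in all 4 groups. The 3 of these neuron markers that were tested differed with Shh by -0.28 to 0.14 on the average of both genotypes. Of these, 1 was above 0 and 1 was called lower. Of the markers too dim on average to be tested, only Gabra6, a receptor subunit of mature granule neurons, is given here. This 1 gene does not stand for the list. Gabra6 gave 245, 251 and 304 in untreated WT and 73.6, 108 and 139.9 in untreated KO. On the 4 arrays with Shh it gave 18.6 to 23.1, near the floor of 20.9. In bulk RNA, fewer cells of a type and less RNA per cell cannot be told apart, and the part of this change in the Shh differences of the repair genes was not tested. The labels do not say whether untreated cultures were kept as long as treated ones.

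The arrays were deposited at a trimmed mean signal of 500 each, but the median over probe sets lay between 84.8 and 91.2 without Shh and between 66.9 and 72.3 with it. Scaling to a common median moved the median Shh difference of all genes to 0.33 in WT and 0.29 in KO, and the share of called genes that were higher from 41.3% and 39.4% to 80.7% and 79.4% (48.8% and 46% after quantile normalization). Relative to the median of all genes the 31 repair genes stood at 0.368 in WT and 0.215 in KO under the deposited and the median scaling, and at 0.401 and 0.16 after quantile normalization. Under median scaling 24 rose and 0 fell in WT and 18 and 0 in KO, where 45.4% and 38.1% of all tested genes were called higher. Under quantile normalization the counts were 16 and 0 in WT and 11 and 0 in KO, where 15.1% and 12.3% of all genes were called higher. Array 1 (2030) and array 6 (6301) had a high 18S control signal against 219 to 649 on the others. Without these 2 arrays 13 of the 31 were called for Shh in WT and 11 in KO, beside 3349 and 2527 of all 11405 genes.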

How the data were processed

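RNA from 10 cultures was measured on 1 Affymetrix Mouse Genome 430 2.0 array each. The deposited values are MAS5 signal intensity on a linear scale, made by the authors with GCOS 1.2 per the submitters' processing notes, with no detection calls. MAS5 brings each array to the same 2% trimmed mean, so a difference is relative to that mean. Of 45101 probe sets, 64 controls and those with several or no symbols were left out. Signals under the 25th percentile (20.9) were raised to it, log2 was taken, and genes with a mean log2 of at least 6.25, the median of all probe sets, were tested.

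All 10 arrays entered 1 limma 3.58.1 model (R 4.3.3, lmFit and eBayes, 6 residual degrees of freedom, two-sided, Benjamini-Hochberg over genes) with 7 comparisons. The script was tested on simulated data. Errors are SE unless called SD. The labels name no pairs, but arrays with consecutive numbers deviated together (correlations 0.12 to 0.278 in the untreated pairs, 0.16 with Shh), so a fit with the pairs as a block was run too. The genes and lists were chosen with earlier results of these data known. Genes called in any comparison were named, with the signal on every array for the largest 3 rises and falls of each comparison, and the largest 2 of each other list. Alternatives changed the scaling, floor, filter, probe sets, prior and arrays.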

Additional observations from a re-analysis of the deposited data

Results flagged for a closer look

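Chek1 and Xrcc1 were each higher in KO than in WT on every untreated array and lower in KO than in WT on every array with Shh. Some of these gaps were narrow. Untreated Chek1 was 843 on its lowest KO array and 834 on its highest WT array. With Shh, Xrcc1 was 929 and 925 in KO against 931 and 1015 in WT. Both genes were picked by this separation, and the share of all genes that show it was not counted. For Chek1 the KO minus WT difference was 0.12 ± 0.08 without Shh and -0.35 ± 0.10 with Shh, and the difference between the Shh effects of both genotypes was -0.462 on the log2 scale (SE 0.13, limma adjusted p = 0.686). A separate bright probe set of Chek1 gave 0.10 for the same quantity. For Xrcc1 the KO minus WT difference was 0.31 ± 0.09 without Shh and -0.07 ± 0.11 with Shh, and the difference between the Shh effects was -0.377 (SE 0.14, limma adjusted p = 0.962). Neither passed the test of the difference itself. Groups of 2 and 3 arrays were too small for a test of single outlying arrays.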

How the results depend on the processing

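Directions of called genes were kept in every alternative run, with no reversal among the calls named. A filter at the 75th percentile left 17 repair genes among 7021 genes. Of the 17, it gave 9 called for Shh in WT, 5 for Shh in KO, 9 for Shh on average and 0 for genotype on average. Of the 7021 genes, 2364, 1935, 3352 and 133 were called in these comparisons. The mean of all probe sets also gave 0 for genotype on average, and adding 16 to the signal in place of the floor gave 1 for KO against WT with Shh. Leaving out 1 array at a time gave 13 to 15 called for Shh in WT, 7 to 11 in KO (7 without array 8), 16 to 20 on average, 0 to 1 for KO against WT with Shh and on average, and 0 untreated and for the interaction. With consecutive numbers as a replicate block the counts were 16, 12 and 19 for Shh in WT, in KO and on average and 0, 0 and 1 for genotype without Shh, with Shh and on average, and of the calls only those of Fanci (lost in WT and on average) and Msh6 (gained in WT) changed. Over all genes, calls for KO against WT also moved: 43 untreated became 82 with a trended robust prior, 23 with the block and 10 without arrays 1 and 6, and 83 with Shh became 134, 50 and 52, or 3 when only those 4 arrays were fitted. Calls for Shh went from 3855 to 6424 in WT and from 3199 to 5475 in KO under median scaling. For the interaction and both averages, fitting only the groups compared is the fit already made. With 2 arrays per group, small differences cannot be told from the spread.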
